A study of Daphnia magna with 15 samples.

Results

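The 6 libraries described here are the 3 made from Daphnia magna neonates exposed to etoposide at 300 ng/L and the 3 made from neonates exposed to imatinib mesylate at 2000 ng/L, of 15 libraries in the series, and the drug groups are set directly against each other. Every library is poly(A) RNA of whole neonates of 1 laboratory strain, 48 to 72 h old, unfed and kept at 24 °C for 24 h in 25 mL of medium with 20 to 25 animals in each vessel. The other libraries are 3 of cisplatin at 10 ng/L and 3 each of the unexposed sets control A and control B; they enter the fits as separate groups that help to estimate the spread between libraries. The labels name no separate cultures behind the replicates, so each p-value measures the spread between these libraries, which may be technical. The concentrations differ between the drugs, so nothing here compares them at a matched dose.

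Etoposide traps topoisomerase II on cut DNA, which leaves breaks that cells must repair. Imatinib blocks the ATP site of a small set of tyrosine kinases, known best in humans as ABL, KIT and the receptors of platelet-derived growth factor. Daphnia magna is a freshwater crustacean that reproduces mostly by parthenogenesis and is widely used to test the toxicity of water, and a whole neonate mixes the RNA of gut, muscle, epidermis, nerve and germ cells. In such bulk samples, fewer cells of a type and less RNA per cell cannot be told apart.

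The deposited values are FPKM (fragments scaled by transcript length and by library size), with 33982 assembled transcripts in 18877 loci. A locus carries an XLOC identifier and a transcript a TCONS identifier, both given by the assembly. Of these identifiers, 0 were found among the 28335 genes listed in the RefSeq table, so the files do not pair them with gene names and no gene function, pathway list or tissue marker could be read. Loci are therefore described by identifier, position, length and values. The 6 libraries listed 71 to 289 loci at 0 FPKM, against 1375 in control A 1, and absolute sequencing depth is unknown.

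Locus sums are the FPKM of all transcripts of a locus added up. On that scale, the fit of all 15 libraries called no locus between the drug groups. Of 18098 loci tested on log2(FPKM + 1), 0 (0% of those tested) passed an adjusted p of 0.05 (limma, smallest adjusted p = 0.158). At an unadjusted p under 0.05 there were 2289 loci, 12.6% of those tested, 1089 higher with etoposide (6.02%) and 1200 lower (6.63%). The direction with more loci was not settled: the split was 1264 higher and 1080 lower after quantile normalization, 1209 and 1052 after median centring, and 1023 and 704 without etoposide 3. In 18% of loci the 3 libraries of one drug all lay above the 3 of the other, with etoposide above in 1818 (10%) and below in 1440 (7.96%). Over all loci the log2 difference had a median of 0.02. FPKM are scaled by library size, so this median cannot show whether the groups differed in total RNA. Control A had the widest spread of the 5 groups, a median SD per locus of 0.384 on the log2 scale against 0.29 for etoposide and 0.226 for imatinib. Control B and cisplatin had the smallest, 0.16 and 0.152. A fit of the 12 libraries without control A passed 13 loci (limma, smallest adjusted p = 0.00773), 6 of them lower with etoposide. That fit takes part of its spread from control B and cisplatin, which varied less than the drug groups. A fit of the 6 drug libraries alone passed 0 loci (limma, smallest adjusted p = 0.524). Leaving out control A 3 passed 2.

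The size of difference that these libraries can show was limited. The 95% interval of a locus reached a median of 0.53 on the log2 scale to either side, a 1.45-fold change. It lay within 2-fold in both directions for 11728 loci, or 64.8%. That share depended on level and length, with 77.1% of loci at 20 to 100 FPKM, 49% at 1 to 5 FPKM and 43.7% at up to 1 FPKM. The 149 loci over 1000 FPKM were the least precise by level, at 33.6%, and of the 73 loci of up to 100 bp the share was 0%. Differences over 2-fold were measured at 758 loci, 253 higher and 505 lower with etoposide, with none of them past the adjusted threshold.

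**Figure D1:**
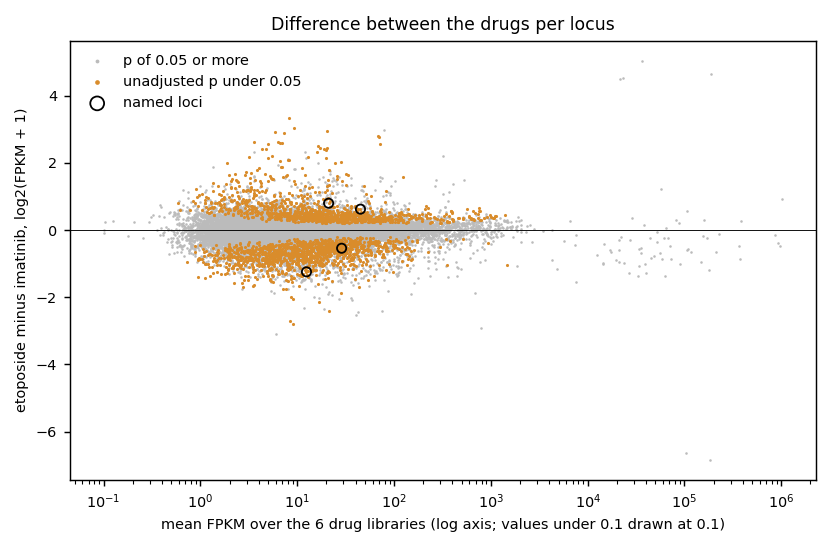
Each point is 1 of 18098 loci, with its mean FPKM over the 6 drug libraries on a log axis and the etoposide minus imatinib difference in log2(FPKM + 1) on the vertical axis. The 2289 loci at an unadjusted p under 0.05 are orange, and the 4 loci named in the text are circled; the widest differences belong to loci of very high FPKM, drawn grey.

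Libraries of different drugs lay somewhat farther apart than libraries of the same drug, with overlapping ranges. The distance used was the median absolute log2 difference over loci for a pair of libraries. It ran from 0.263 to 0.363 between etoposide libraries, from 0.228 to 0.296 between imatinib libraries and from 0.259 to 0.451 between the drugs. The median was 0.315 between the drugs and 0.28 within them. Most pairs across the drugs were wider than the widest imatinib pair. Etoposide 2 and imatinib 1 formed the nearest pair across the drugs, nearer than any pair of etoposide libraries. Etoposide 3 was the least like the rest of its group: 11.4% of its loci lay over 2-fold from the mean of the other 2 libraries, against 8.7% and 6.55% for etoposide 1 and 2 and 4.93% to 8.64% for the imatinib libraries.

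The locus with the smallest p among well-measured loci that were higher with etoposide was XLOC_010994, a single-transcript locus of 449 bp on scaffold01898, 49326 to 49774. Here and below, well measured means an interval of at least 300 bp, an average of 10 FPKM or more in the 6 libraries and no overlap between the groups. Its level was 50.5, 58.2 and 55.5 FPKM in the etoposide libraries and 35, 36 and 34.4 FPKM in the imatinib libraries. The imatinib libraries were the low ones: control A measured 60.9 ± 7.05 FPKM and control B 57.1 ± 4.7 (SD, n = 3), close to etoposide, whereas cisplatin, at 38.2 ± 1.68, lay near imatinib. The difference between the drugs was 0.62 on the log2 scale (SE 0.106, 1.54-fold; limma, adjusted p = 0.158), and it passed in the fit without control A (adjusted p = 0.0473). Against the controls, which both drug comparisons share, imatinib was lower by -0.77 and -0.68 (limma, adjusted p = 0.00906 for control A, 0.00122 for control B). Etoposide differed by -0.15 and -0.06 (limma, adjusted p = 0.358 and 0.728). For this and the other named loci, such comparisons reuse the drug libraries by which the locus was picked, so they are no separate support.

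XLOC_010344, a single-transcript locus of 697 bp on scaffold01829, 22881 to 23577, had 32.5, 22.6 and 26.2 FPKM with etoposide and 16.4, 15.6 and 13.1 FPKM with imatinib. Its etoposide libraries spread over the range of control A, 25.5 ± 2.8 FPKM, while all 3 imatinib libraries lay below the lowest of the 12 other libraries. Control B, at 37.9 ± 2.89, and cisplatin, at 37.2 ± 1.39 (SD, n = 3), were above both drugs. The drugs differed by 0.80 on the log2 scale (SE 0.139, 1.74-fold; limma, adjusted p = 0.158). Imatinib was lower than control A by -0.72 and than control B by -1.28 (limma, adjusted p = 0.0161 and 0.000245), and etoposide was lower than control B by -0.48 (limma, adjusted p = 0.023).

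Among the loci that were lower with etoposide, XLOC_015168, a locus of 2 transcripts and 2567 bp on scaffold02560, 34955 to 37521, came first. It measured 8.59, 8.72 and 4.27 FPKM with etoposide and 17.8, 18.8 and 16.4 FPKM with imatinib. Every etoposide library lay below all 12 others, whose group means ran from 15.5 ± 2.22 FPKM in control A to 23.1 ± 4.37 in control B (SD, n = 3). The difference was -1.24 on the log2 scale (SE 0.217, 2.37-fold; limma, adjusted p = 0.158). Etoposide was lower than control A by -1.05 and than control B by -1.60 (limma, adjusted p = 0.0191 and 0.000949), and imatinib differed from them by 0.19 and -0.35 (limma, adjusted p = 0.607 and 0.256).

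XLOC_001212, with 11 transcripts over 17442 bp on scaffold00448, 1647 to 19088, had 21.8, 24.5 and 23.3 FPKM with etoposide and 33.1, 34.2 and 35.2 FPKM with imatinib. Both groups were tight, with an SD of 1.35 and 1.06 FPKM, and did not overlap. Here the unexposed sets disagreed: control A, at 26.7 ± 3.04 FPKM, lay nearer to etoposide, and control B, at 40.7 ± 2.27 (SD, n = 3), nearer to imatinib. The drugs differed by -0.54 on the log2 scale (SE 0.103, 1.45-fold; limma, adjusted p = 0.177).

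**Figure D2:**
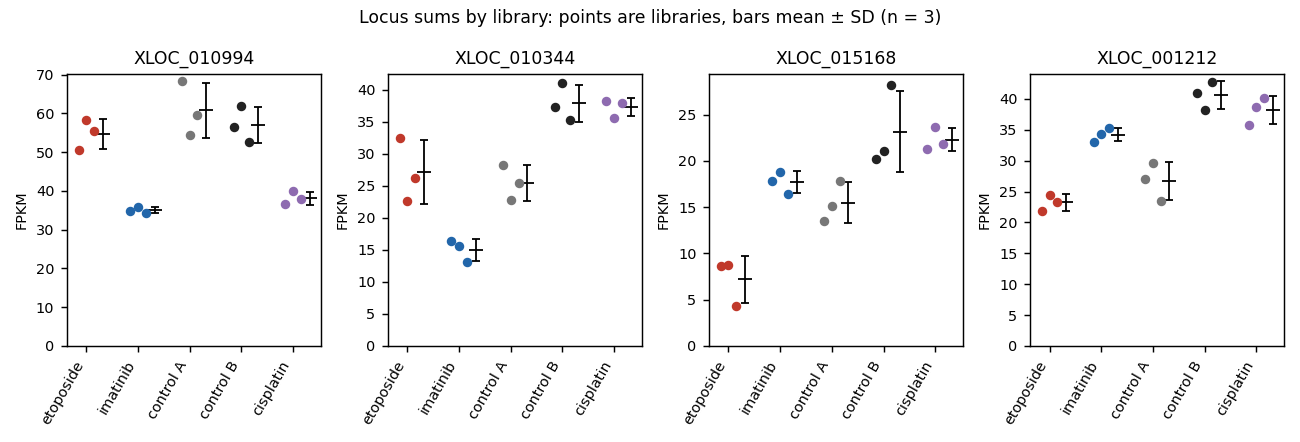
FPKM of the 4 named loci, summed over transcripts, in each of the 15 libraries; points are libraries and bars are the mean ± SD of 3. Imatinib is the low group in the first and second panels (XLOC_010994 and XLOC_010344), and etoposide in the third (XLOC_015168).

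The clearest difference between the drugs was in single transcripts rather than in locus sums. Of 26026 transcripts tested, 2 passed (0.00768%), both lower with etoposide, and 2499 had an unadjusted p under 0.05 (9.6%), 1169 higher (4.49%) and 1330 lower (5.11%). That split also turned, to 1321 higher and 1207 lower after quantile normalization, 1467 and 1064 after median centring, and 1081 and 826 without etoposide 3. The direction of the transcripts that passed varied too. With a pseudocount of 0.1, 4 were higher with etoposide and 1 lower, and without imatinib 2, 5 and 1. A pseudocount of 5 gave 0 higher and 5 lower. The groups did not overlap in 16% of transcripts, with etoposide above in 8.39% and below in 7.57%. TCONS_00005347, 1 of 3 transcripts of XLOC_002968 on scaffold00903, 47280 to 50174, was listed at 0.291, 0.0197 and 0.365 FPKM in the etoposide libraries and at 58.3, 72.1 and 95.6 FPKM in the imatinib libraries. The other 9 libraries all held it, from 67.8 to 224.6 FPKM. The difference was -5.94 on the log2(FPKM + 1) scale (SE 0.379; limma, adjusted p = 4.27e-05), and its size follows the pseudocount, at -8.05 with 0.1 and -3.92 with 5. Etoposide was lower than control A and control B (limma, adjusted p = 6.58e-06 and 2.47e-05, where 5.41% and 15.8% of transcripts passed). Imatinib did not pass against either (limma, adjusted p = 0.368 and 0.687). These comparisons reuse the drug libraries by which the transcript was picked, so they are no separate support.

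The locus as a whole did not follow that transcript. XLOC_002968 summed to 742.8, 810.5 and 800.1 FPKM with etoposide and to 749.9, 755 and 675.4 FPKM with imatinib, and the groups overlapped (log2 difference 0.11, SE 0.143; limma, adjusted p = 0.782). The bulk of the locus lay in TCONS_00005348 and TCONS_00005349, whose estimates varied widely within groups: TCONS_00005348 had 485, 119.3 and 260.6 FPKM in the imatinib libraries, and 8 and 654.3 FPKM in control A 1 and control A 2. Estimates of these 2 transcripts thus differed severalfold inside a group, while TCONS_00005347 stayed near 0 in all 3 etoposide libraries and in no other. Of all transcripts tested, it was the single one under 1 FPKM in every etoposide library and over 10 FPKM in every other library; the same count was 0 for imatinib, control B and cisplatin and 2 for control A.

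The second transcript was TCONS_00006135 of XLOC_003370, a locus of 3 transcripts on scaffold00944, 4749 to 7010, whose interval is shared with another locus. It had 4.68, 5.96 and 5.94 FPKM with imatinib and under 0.001 FPKM in each etoposide library, and 1.22 FPKM in control B 3 was its highest value elsewhere. Here imatinib was the group that stood apart, higher than control A and control B (limma, adjusted p = 0.00289 and 0.000992, where 4.1% and 12.3% of transcripts passed). Only the imatinib libraries brought the average of TCONS_00006135 over the 15 libraries to the filter of 1 FPKM. It was thus tested because imatinib was high, and its p-values are no separate support for that. The difference between the drugs was -2.70 on the log2 scale (SE 0.313; limma, adjusted p = 0.0188), or -5.80 and -1.07 with a pseudocount of 0.1 and 5. The call was lost without any 1 of etoposide 1, 2 or 3, imatinib 2 or 3, or cisplatin 3 (limma, adjusted p from 0.0519 to 0.141), whereas TCONS_00005347 passed without any 1 of the 15 libraries. The count of 2 became 1 without etoposide 3 or cisplatin 3, 4 without etoposide 1, etoposide 2, control A 3 or cisplatin 2, 5 without control A 1, and 6 and 7 without imatinib 2 and 1; it was 21 in the fit without all of control A.

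Whether transcripts of a locus shifted against each other was tested in the 4981 loci with at least 2 tested transcripts (limma's diffSplice, with the Simes p per locus). The test passed 26 loci (0.522% of those tested), with 490 at an unadjusted p under 0.05 (9.84%). It takes 1 spread for all transcripts of a locus. A test of each transcript's log2 ratio to the rest of its locus, with its own spread, passed 1 of the 26 (limma, adjusted p = 0.000278), and that locus was XLOC_002968. For the other 25 the calls rest on the first test. On simulated data, false calls made up a larger share of the calls than the threshold allows in both tests. The simulated noise was drawn independently for each transcript, which may not hold for transcripts of the same locus. In 12 of the 26, a transcript was under 1 FPKM in all 3 libraries of one drug and over 1 FPKM in all 3 of the other, a pattern held by 142 of the 4981 loci (2.85%) and close to what the test measures. The locus sums of the 26 differed between the drugs by a median of 0.21 on the log2 scale in either direction, beside 0.23 over all loci, and by up to 0.63. An unadjusted p under 0.05 for the sum was found in 7 of the 26 (26.9%, against 12.6% of all loci). Of the 26, 10 share their interval with another locus, as do 5425 of the 18098 loci tested. That share was not counted among the 4981.

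XLOC_008707, a locus of 3 transcripts on scaffold01605, 8496 to 10765, had the smallest p in the first test (limma diffSplice, adjusted p = 0.000127; 0.275 in the ratio test). Its transcript TCONS_00015612 had 19.5, 3.52 and 22 FPKM with etoposide, 0.0861, 0.0775 and 0.544 FPKM with imatinib, and at most 0.88 FPKM in the 9 other libraries. Etoposide was thus the high group, with etoposide 2 well below the other etoposide libraries. Only the etoposide libraries brought the average of TCONS_00015612 to the filter of 1 FPKM, so it was tested because etoposide was high. The locus sum was 43.1 ± 2.22 FPKM with etoposide and 37.2 ± 2.61 with imatinib (SD, n = 3; limma, adjusted p = 0.419).

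XLOC_007884, on scaffold01501, 151026 to 153251, was chosen after its values were seen, because its 2 transcripts traded places between the drugs. TCONS_00014142 had 10.2, 9.33 and 6.9 FPKM with imatinib and at most 0.00653 FPKM with etoposide. Only the imatinib libraries brought its average to the filter of 1 FPKM, so the locus entered the test of transcript use through them. TCONS_00014143 had 15, 10.1 and 9.81 FPKM with etoposide and at most 0.034 FPKM with imatinib. Most other libraries held TCONS_00014143, as etoposide did, but control A 1 carried 4.03 FPKM of TCONS_00014142 and 0.105 FPKM of the other, as imatinib did. The shift passed the first test (limma diffSplice, adjusted p = 0.000437) and not the ratio test (limma, adjusted p = 0.178), and neither transcript passed alone (limma, adjusted p = 0.176 and 0.238).

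**Figure D3:**
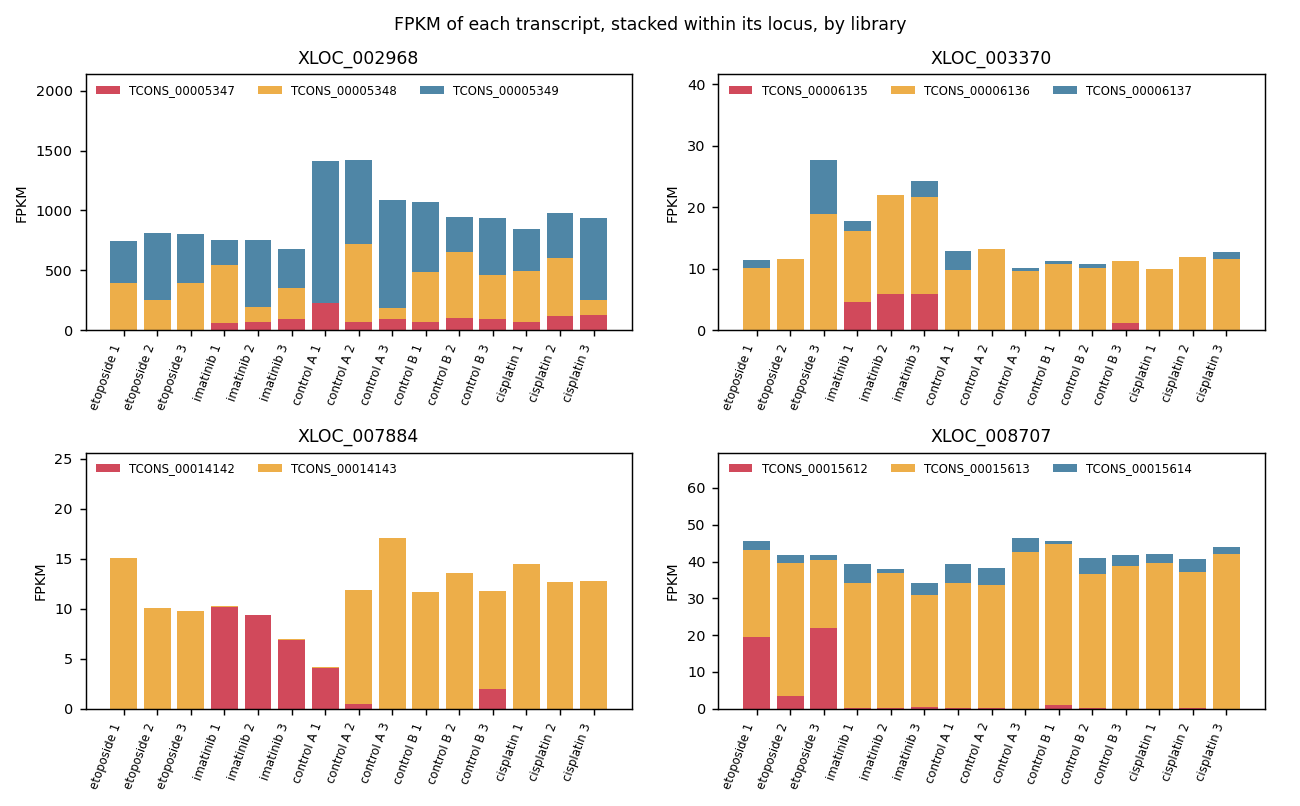
FPKM of each transcript, stacked within its locus, for 4 loci in each of the 15 libraries. TCONS_00005347 is missing from the 3 etoposide bars of XLOC_002968, TCONS_00006135 appears in the imatinib bars of XLOC_003370, the bars of XLOC_007884 change colour between the drugs, and TCONS_00015612 appears in the etoposide bars of XLOC_008707.

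Neighbouring loci differed in the same direction more often than in opposite ones. Over 12911 pairs of adjacent, non-overlapping tested loci, 57.6% had differences of the same sign, and their differences correlated at r = 0.29. The correlation was 0.35 for the 8631 pairs under 1000 bp apart and 0.18 for the rest. The share of the same sign hardly changed with distance, at 57.8% and 57.4%. This is a description across loci, which share libraries and scaffolds. The scaffold with the most loci at an unadjusted p under 0.05 that all went one way was scaffold01591, picked for that count. There 12 of 32 tested loci, or 37.5% against 12.6% of all loci, had such a p, all 12 higher with etoposide by 0.87 to 2.90 on the log2 scale. None passed the adjusted threshold (limma, smallest adjusted p = 0.232). In 5 of the 32 loci all etoposide libraries lay above all imatinib libraries, and in 0 below; the 5 are 15.6%, beside 10% of all loci.

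The median log2(FPKM + 1) over the 32 loci was 4.26, 3.80 and 2.88 in the etoposide libraries and 3.04, 2.05 and 2.68 in the imatinib libraries, so etoposide 3 lay below imatinib 1. Control A measured 3.79, 3.68 and 4.10, and control B and cisplatin stood above all of these, from 4.74 to 5.15. The median difference of the 32 loci was 0.49 on the log2 scale, 0.27 without etoposide 1 and 0.87 without etoposide 3. Across the scaffold, 26 of the 32 loci hold 1 transcript, and the median interval was 1466 bp against 2120 bp over all loci tested.

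**Figure D4:**
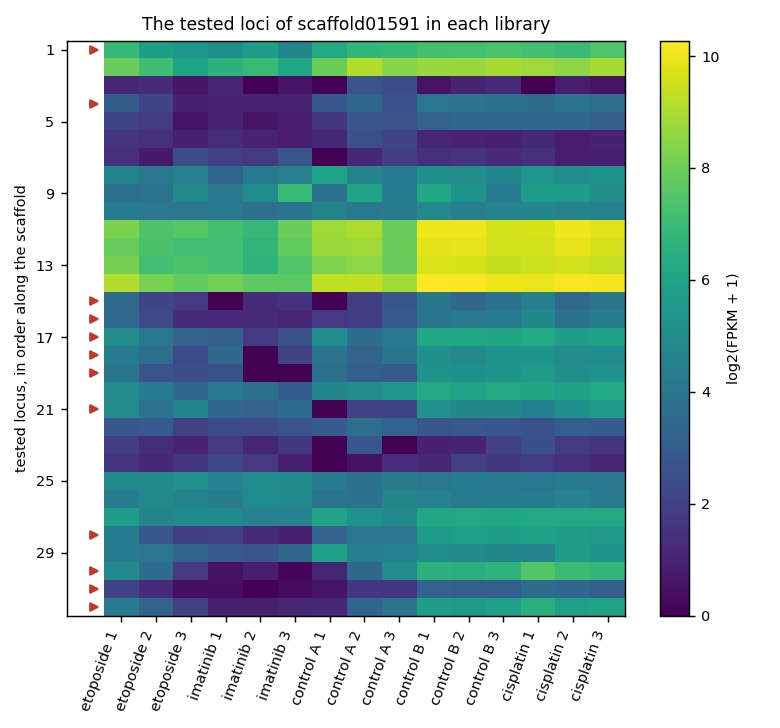
Log2(FPKM + 1) of the 32 tested loci of scaffold01591, in order along the scaffold (rows), in each of the 15 libraries (columns); red marks show the 12 loci at an unadjusted p under 0.05. At most marked loci the imatinib columns are darker than etoposide 1, and etoposide 3 lies close to imatinib.

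Long loci leaned the other way. Among the 567 loci over 10000 bp, 102 had an unadjusted p under 0.05 (18%, against 12.6% of all loci), 22 higher and 80 lower with etoposide, and their median log2 difference was -0.11. The 3240 loci over 300 bp and up to 1000 bp had 333 (10.3%), 197 higher and 136 lower, with a median of 0.03 that fell to 0.01 without etoposide 2 or without imatinib 1. For the long class, the median deviation from the mean of the 6 libraries was -0.05, -0.04 and -0.01 in the etoposide libraries and 0.03, 0.06 and 0.06 in the imatinib libraries, with no overlap. Medians of the 7957 loci over 1000 bp and up to 3000 bp did not overlap either, with etoposide the higher group. They were 0.04, 0.03 and 0.02 in the etoposide libraries and -0.04, 0.003 and -0.02 in the imatinib libraries. The sign of the long class's median held in every alternative that could change it, from -0.13 to -0.07. These were other pseudocounts and FPKM filters, quantile normalization, median centring, library weights and each drug library left out. The other alternatives leave this median unchanged by design, so they say nothing about it. Loci that share their interval with another locus were more often higher with etoposide: of 5425, 629 had an unadjusted p under 0.05 (11.6%), 443 higher and 186 lower. Their median log2 difference was 0.09, and 0.05 without etoposide 3. There were 646 higher and 1014 lower among the 12673 loci with an interval of their own.

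**Figure D5:**
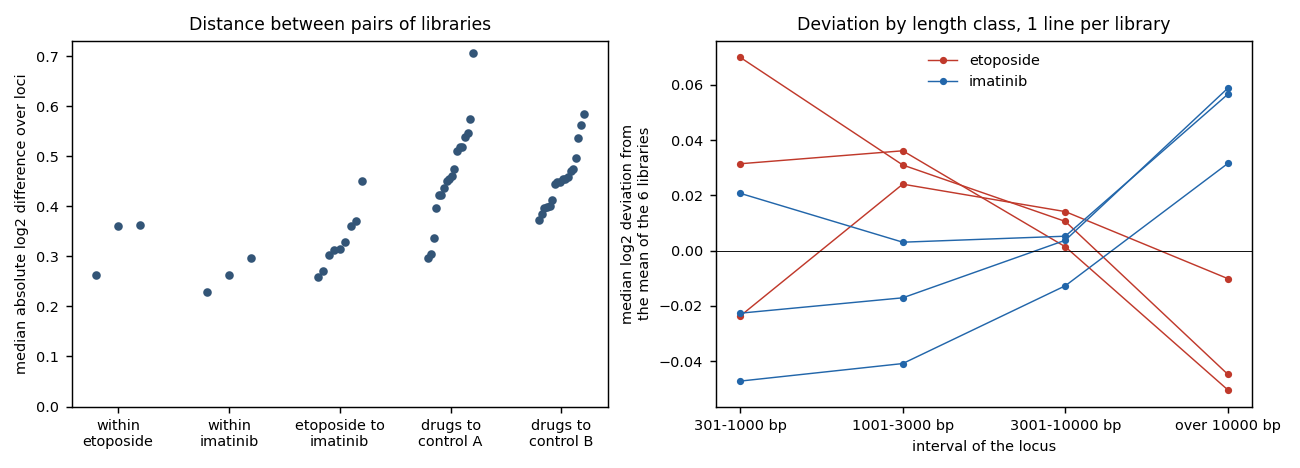
Left, the median absolute log2 difference over loci for pairs of libraries, 1 point a pair, within each drug, between the drugs (0.259 to 0.451) and from the drug libraries to each control set. Right, the median log2 deviation from the mean of the 6 drug libraries for loci grouped by interval, 1 line a library, from the class of over 300 to 1000 bp upward. The imatinib lines all lie above the etoposide lines only in the class over 10000 bp, and all below only in the class over 1000 to 3000 bp.

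Loci called for one drug and not for the other were looked up in the direct comparison. A locus was called for a drug only if it passed in the same direction against both control sets. The drug it was not called for could still have passed against a single set. Of 18098 loci tested, 849 were lower and 134 higher with etoposide and not with imatinib. These calls are against both control sets, which the drugs share (limma, adjusted p under 0.05 in each comparison). Against control A alone 15.5% of loci passed for etoposide and 9.03% for imatinib, and against control B 28.7% and 23.2%. Set directly against imatinib, 465 of the 849 and 22 of the 134 had an unadjusted p under 0.05 in that direction, and 0 passed the adjusted threshold. Of the 299 loci lower and 40 higher with imatinib and not with etoposide, 166 and 6 did, again with 0 past the adjusted threshold. The shares in that direction were 54.8% of the 849 and 16.4% of the 134, and 55.5% of the 299 and 15% of the 40. Over all loci, 6.02% had such a p with etoposide higher and 6.63% with etoposide lower. Another 154 loci were called lower and 84 higher for both drugs. Of these, 12 (7.79%) and 2 (2.38%) had an unadjusted p under 0.05 between the drugs, in either direction. These shares rest on the same drug libraries, so they are no separate support. Of the 2289 loci at an unadjusted p under 0.05 between the drugs, 1616 (70.6%) had passed against both control sets for neither drug, against 91.4% of all loci.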

How the data were processed

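The authors deposited FPKM per assembled transcript. The submitters' processing notes list Cuffdiff, Cufflinks 2.2.1, Bowtie2 2.1, TopHat2 2.0, Trim Galore and CASAVA 1.8.0, without settings. The genome build is "not given in the sources used here", and neither is the scaling applied across libraries. Per the labels' protocols, a stranded mRNA kit and 320 ng of total RNA went into each library. Positions are as deposited.

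FPKM were summed per locus. Loci and transcripts that averaged 1 FPKM or more in the 15 libraries were fitted by limma 3.58.1 (R 4.3.3) on log2(FPKM + 1), with a trended prior (5 group means, shared spread, 10 residual degrees of freedom), adjusted by Benjamini-Hochberg over all features, with a threshold of 0.05. A fold change on that scale understates the change of low features. Ratios between libraries at low loci did not settle on 1 step (imatinib 3 gave 2 equal ones, 3.42% each), so relative depth was not read. Named loci were the 2 with the smallest p in each direction under the limits the report states; named transcripts were those that passed; the named transcript-use locus had the smallest p. The members, lists and rules were chosen with earlier results of these data known. Both transcript-use alternatives, the F test and the ratio test, were added after seeing the data. The tests were tried on simulated data.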

Additional observations from a re-analysis of the deposited data

How the results depend on the processing

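The count of 0 loci held under all alternatives run except the fit without control A, with 13, and the leave-one-out fits, which gave 0 to 2. The 2 transcripts became 5 with a pseudocount of 0.1 or of 5, 1 with a mean of at least 5 FPKM, 4 after median centring, 6 in a fit of the 6 libraries alone, 21 without control A, and 1 to 7 with 1 library left out. TCONS_00005347 passed in all of these; TCONS_00006135 also lost its call with a pseudocount of 0.1, in the fit of the 6 libraries alone and with library weights (limma, adjusted p = 0.169, 0.0684 and 0.058). The 26 loci of the transcript-use test became 1 in the ratio test, 20 with the F test, 51 without a filter, 10 with a mean of at least 5 FPKM, 53 in the fit of the 6 libraries alone and in the fit without control A, and 12 to 43 with 1 library left out (12 without etoposide 3, 15 without cisplatin 3 and 43 without control A 1). Their 490 at an unadjusted p under 0.05 became 736 and 195 with no filter and with the higher one. With a pseudocount of 5 the distance was 0.218 between the drugs and 0.194 within them, against 0.315 and 0.28 with 1. Same-numbered etoposide and imatinib libraries deviated from their group means with correlations of 0.108, -0.121 and 0.351. The last, for etoposide 3 and imatinib 3, was the highest of any pair across the drugs. Etoposide 1 correlated better with imatinib 2 (0.182) than with imatinib 1, and etoposide 2 best with imatinib 1 (0.255). Whether equal numbers mark libraries handled together was not tested. A replicate block in the fit of the 6 libraries gave 0 loci, 0 transcripts (2204 at an unadjusted p under 0.05, limma, smallest adjusted p = 0.275) and 20 loci in the transcript-use test. At an unadjusted p under 0.05 the block gave 2077 loci, against 1649 in that fit without it. Absolute depth is unknown, so its part in the width of the intervals was not tested.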
